A study of Mus musculus with 24 samples.

Results

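Described here are the genes of VEGF and adrenomedullin signalling in the mouse retina after hypoxic preconditioning, chosen by symbol: the ligands Vegfa, Vegfb and Vegfc, the VEGF receptors Flt1 and Kdr, the peptide precursor Adm, and the adrenomedullin receptor subunits Calcrl and Ramp2. They comprise 8 of the 18193 genes named by the array annotation and are measured by 17 of 45037 probe sets, a probe set being a group of short probes that together read 1 transcript. RNA came from 8 groups of retinas, with 3 Affymetrix arrays each and 24 in all. The hypoxic groups were retinas of BALB/c mice kept for 6 h at 6% oxygen and returned to room air in darkness for 0, 2, 4 or 16 h, and the normoxic groups were retinas of BALB/c mice without hypoxia, taken in parallel at each of these times. All mice, the normoxic ones included, carried the leucine variant of Rpe65 that makes the retina of this strain sensitive to light. A pool of 3 retinas of 3 mice was put on each array, so that a value averages over animals and the spread between arrays is one between pools. The age of the mice was not given in the sources used here.

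VEGF-A is the secreted factor by which tissue short of oxygen calls for blood vessels. It binds 2 receptor tyrosine kinases on endothelial cells, KDR (VEGFR-2), which carries most of the signal, and FLT1 (VEGFR-1), which also exists as a secreted form that traps the ligand. Adrenomedullin is a vasodilating peptide cut from the Adm precursor, and its receptor is the CALCRL protein joined to one of the accessory proteins RAMP2 and RAMP3. Vegfa and Adm are textbook targets of the hypoxia-inducible factors, which bind a short core sequence in the DNA of their target genes.

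Because Vegfa and Adm moved one way and Kdr the other, the stretch before the start site is shown for Adm, Vegfa and Kdr, with matches to the core of the hypoxia response element in capitals. The core was searched as ACGTG or GCGTG on both strands in the 250 bases before each start site (RefSeq, build GRCm38.p6). A match on the opposite strand reads CACGT or CACGC, and CACGTG would count on both strands.
Adm, chr7:110627407-110627656, plus strand: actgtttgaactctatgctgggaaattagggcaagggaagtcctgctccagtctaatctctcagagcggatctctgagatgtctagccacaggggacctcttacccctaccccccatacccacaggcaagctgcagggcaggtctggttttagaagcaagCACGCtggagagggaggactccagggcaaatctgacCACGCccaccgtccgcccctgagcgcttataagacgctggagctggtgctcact
Vegfa, chr17:46032378-46032627, minus strand: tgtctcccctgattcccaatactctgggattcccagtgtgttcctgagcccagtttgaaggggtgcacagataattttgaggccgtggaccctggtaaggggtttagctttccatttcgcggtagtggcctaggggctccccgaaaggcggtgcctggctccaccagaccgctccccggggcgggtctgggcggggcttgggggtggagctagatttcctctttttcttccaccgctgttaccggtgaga
Kdr, chr5:75978456-75978705, minus strand: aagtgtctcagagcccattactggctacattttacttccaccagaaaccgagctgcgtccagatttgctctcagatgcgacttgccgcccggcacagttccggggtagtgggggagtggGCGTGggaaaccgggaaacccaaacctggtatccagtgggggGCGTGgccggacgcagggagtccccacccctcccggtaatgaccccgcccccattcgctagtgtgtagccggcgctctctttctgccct
Sequences were matched for 7 of the 8 genes, with none used here for Ramp2. The Adm window held 2 matches, both GCGTG on the opposite strand, 90 and 54 bases before the start. The Vegfa window held none. A second listed Vegfa start (chr17:46025164-46025413) lies downstream of the first on the minus strand. Its window held 2, but it is not the stretch before the first start, and whether it acts as a promoter was not tested. As background, the well-known hypoxia response element of Vegfa lies further upstream than the window of the first start. The Kdr window also held 2 matches, 131 and 89 bases before the start, that of Vegfb held 2 and that of Flt1 held 1, and those of Vegfc and Calcrl held none. A match was thus found at the first listed start of 4 of the 7 genes, against 38.6% of all 32851 promoter windows of the same length. The windows of Adm, which rose, and of Kdr, which fell, each held 2 matches, and whether the matches bear on the changes was not tested.

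All values below are log2 signals, and a change is hypoxia minus normoxia on that scale, so that a change of 1 is a doubling. At each time point tests were run for probe sets with a hypoxic or normoxic mean of at least 6.69, the minimum between the low and the high peak of the density of all values. A change was called when its adjusted p was under 0.05 in limma, a linear model fitted across all probe sets, with Benjamini-Hochberg adjustment over all those tested. The array medians lay between 5.79 and 5.84. Replicate 2 at 0 h and replicate 3 at 16 h, both normoxic, stood apart from the other normoxic arrays, with mean distances to the rest of 67.4 and 68.0. Of all 18799 probe sets tested at 0 h 32.4% were called, at 2 h 16.6%, at 4 h 1.43% and at 16 h 0%. Rod photoreceptor markers, 6 of 6, were well above the signal threshold in every group, as the label retina requires, and 8 of 8 lens markers were above it too.

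Immediately after hypoxia 5 of the 10 member probe sets tested were called (against 32.4% of all tested), 4 higher in hypoxia (15.2% of all tested) and 1 lower (17.2%). The 4 that rose were both probe sets of Vegfa, 1 of Adm and 1 of Flt1, and the 1 that fell was Kdr. The median change of the tested members was 0.27, beside -0.01 over all tested probe sets. Adm passed the signal filter only through its hypoxic group and so had to be higher, and without it 4 of 9 were called, 3 of them higher, with a median of 0.26. In each of the 5 the hypoxic and normoxic arrays did not overlap, as in 45.4% of all tested. At 2 h and at 4 h only Kdr was called, and at 16 h 0 of 7. Hypoxic and normoxic arrays were separate for 4 of 9 at 2 h (34.8% of all tested) and 3 of 9 at 4 h (27.3%).

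Vegfa, the main angiogenic ligand, rose at 0 h on both of its probe sets. Probe set 1420909_at had signals of 9.37, 9.47 and 9.70 in hypoxic retinas, against 8.60, 8.78 and 8.68 in normoxic retinas. The lowest hypoxic pool was above the highest normoxic one. Probe set 1451959_a_at had 9.54, 9.34 and 9.36 in hypoxic retinas, against 8.26, 8.08 and 8.14 in normoxic retinas. Here too the groups were far apart compared with the spread within them. The mean of 1420909_at was 9.51 ± 0.17 in hypoxia and 8.68 ± 0.09 in normoxia (SD, n = 3 each), a change of 0.83 (SE 0.12, limma adjusted p = 2.17e-05) or 1.78-fold. For 1451959_a_at it was 9.41 ± 0.11 in hypoxia and 8.16 ± 0.09 in normoxia, a change of 1.25 (SE 0.16, limma adjusted p = 3.1e-06) or 2.38-fold.

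The rise of Vegfa was not found at later time points. At 2 h 1420909_at had 8.61, 8.53 and 8.68 in hypoxic retinas, against 8.58, 8.75 and 9.09 in normoxic retinas, and the groups overlapped. Its change was -0.20 (limma adjusted p = 0.275), and that of 1451959_a_at was -0.15 (limma adjusted p = 0.556). At 4 h 1420909_at had 8.60, 8.78 and 8.76 in hypoxic retinas, against 9.00, 9.16 and 8.94 in normoxic retinas. All hypoxic pools were then below all normoxic pools, and the change of -0.32 (95% interval -0.57 to -0.07) did not pass the adjustment (limma adjusted p = 0.196). The other probe set differed by -0.16 at 4 h (limma adjusted p = 0.681). At 16 h the changes were -0.03 and 0.20 (limma adjusted p = 0.98 and 0.877), and for 1451959_a_at the normoxic pools were widely spread, at 7.77, 8.13 and 7.15.

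**Figure D1:**
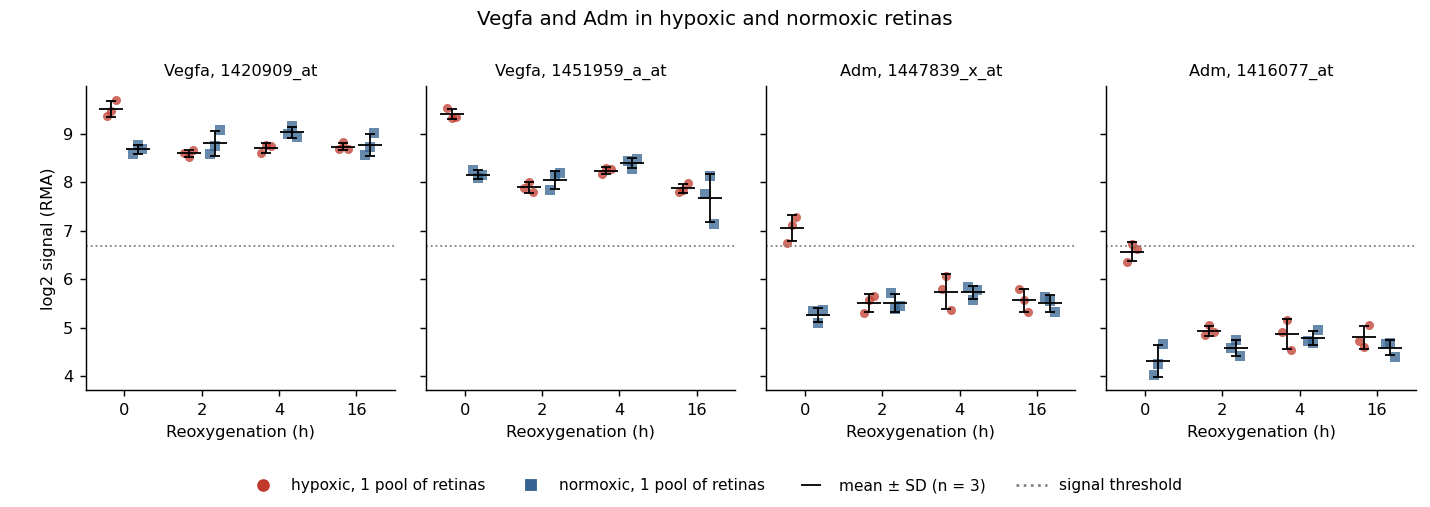
Log2 signal (RMA) of both probe sets of Vegfa and both of Adm by hours of reoxygenation, with hypoxic pools as red circles, normoxic pools as blue squares, and bars for the mean ± SD (n = 3). At 0 h all hypoxic pools lie above all normoxic pools in the 4 panels, and Adm crosses the dotted signal threshold of 6.69 only in hypoxia at 0 h.

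Adm, the precursor of the vasodilator adrenomedullin, was above the signal threshold in only 1 of the 8 groups, hypoxia at 0 h. Probe set 1447839_x_at had 6.76, 7.12 and 7.29 in hypoxic retinas at 0 h, against 5.33, 5.10 and 5.36 in normoxic retinas. All hypoxic and no normoxic pools were above the threshold. The measured means were 7.06 ± 0.27 in hypoxia and 5.26 ± 0.14 in normoxia. Since the normoxic level was below the threshold, only a bound from the means is given. Set against the threshold itself, the hypoxic mean was 1.29-fold higher, with no error attached and the lowest hypoxic pool at 6.76. The limma adjusted p of 6.68e-08 is for the measured hypoxic and normoxic signals, not for this bound. The probe set was tested only because its hypoxic group was high. The second Adm probe set, 1416077_at, had 6.36, 6.72 and 6.63 in hypoxic retinas, against 4.03, 4.25 and 4.67 in normoxic retinas. Its hypoxic mean of 6.57 was just short of the threshold, so that it was not tested and no fold is given. With no signal filter its limma adjusted p was 8.12e-09. At 2, 4 and 16 h both probe sets were below the threshold in every group and were not tested. The measured changes of 1447839_x_at were then 0.00, 0.01 and 0.06, and those of 1416077_at were 0.35, 0.09 and 0.22. At 2 h all hypoxic pools of 1416077_at (4.84, 5.06 and 4.90) were above the normoxic ones (4.59, 4.74 and 4.42), and with no filter this difference had a limma adjusted p of 0.243.

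The other VEGF ligands showed no called change with all arrays in the model. Vegfb, a ligand that binds FLT1 and not KDR, had 8.80, 8.58 and 8.82 in hypoxic retinas at 0 h, against 8.71, 8.56 and 8.24 in normoxic retinas. The groups overlapped, and the change of 0.23 (95% interval 0.02 to 0.45) had a limma adjusted p of 0.0919. This value rested on single arrays: with 1 array left out it lay between 0.10 and 0.34, and it was called without hypoxic replicate 2 (limma adjusted p = 0.0443), without normoxic replicate 1 (limma adjusted p = 0.0223) and with array weights (limma adjusted p = 0.0375). Its changes at 2, 4 and 16 h were -0.04, -0.10 and -0.09, with all hypoxic pools below the normoxic pools at 4 h. Vegfc, the ligand of the lymphatic VEGF receptor, was never above the threshold. The highest single values of its 3 probe sets were 5.05, 5.76 and 4.50. Pgf and Vegfd, the remaining genes of this ligand family on the array, were below the threshold in every group as well.

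Kdr, the main signalling receptor for VEGF-A, was lower after hypoxia. At 0 h its only probe set, 1449379_at, had 9.26, 9.14 and 9.24 in hypoxic retinas, against 9.80, 10.26 and 9.72 in normoxic retinas. All hypoxic pools were below all normoxic pools, and the normoxic pool at 10.26 was the array that stood apart. The means were 9.21 ± 0.06 in hypoxia and 9.93 ± 0.29 in normoxia, a change of -0.71 (SE 0.13, limma adjusted p = 0.000224). Without the 2 arrays that stood apart it was -0.55 (limma adjusted p = 0.00249).

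At 2 h Kdr differed further in size. It had 8.98, 8.95 and 8.73 in hypoxic retinas, against 10.05, 9.93 and 9.64 in normoxic retinas, again without overlap. The means were 8.89 ± 0.13 in hypoxia and 9.87 ± 0.21 in normoxia, a change of -0.99 (SE 0.13, limma adjusted p = 4.53e-05), a ratio of 0.50 and the 19th lowest of 18587 tested. It was the 1 call among 9 tested members, beside 16.6% of all tested in either direction and 7.38% lower. The difference between the changes at 0 h and 2 h was 0.27 (95% interval -0.11 to 0.65, limma adjusted p = 0.428), so the larger size at 2 h was within the error. With the methods' t-test, whose spread comes from only the 6 arrays compared, the adjusted p of Kdr was 0.0675 at 0 h and 0.0704 at 2 h.

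At 4 h Kdr had 9.09, 9.36 and 9.22 in hypoxic retinas, against 9.73, 9.86 and 9.67 in normoxic retinas, and the groups still did not overlap. The change of -0.54 (SE 0.13) had a limma adjusted p of 0.0378, and Kdr was again the 1 call among 9 tested members, beside 1.43% of all tested and 0.551% lower. This call rested on single arrays. It was lost without the hypoxic replicates 1 or 3 (adjusted p = 0.221 and 0.108) and without the normoxic replicates 1, 2 or 3 of this time point (adjusted p = 0.101, 0.119 and 0.0819), also with no signal filter (adjusted p = 0.0698), and the change then lay between -0.58 and -0.47. At 16 h Kdr had 10.25, 9.83 and 9.99 in hypoxic retinas, against 10.10, 10.08 and 10.03 in normoxic retinas, with overlap and a change of -0.05 (limma adjusted p = 0.974). The change at 0 h was lower than that at 16 h by a difference of -0.67 (limma adjusted p = 0.0125), which was -0.48 (limma adjusted p = 0.0673) without the arrays that stood apart.

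**Figure D2:**
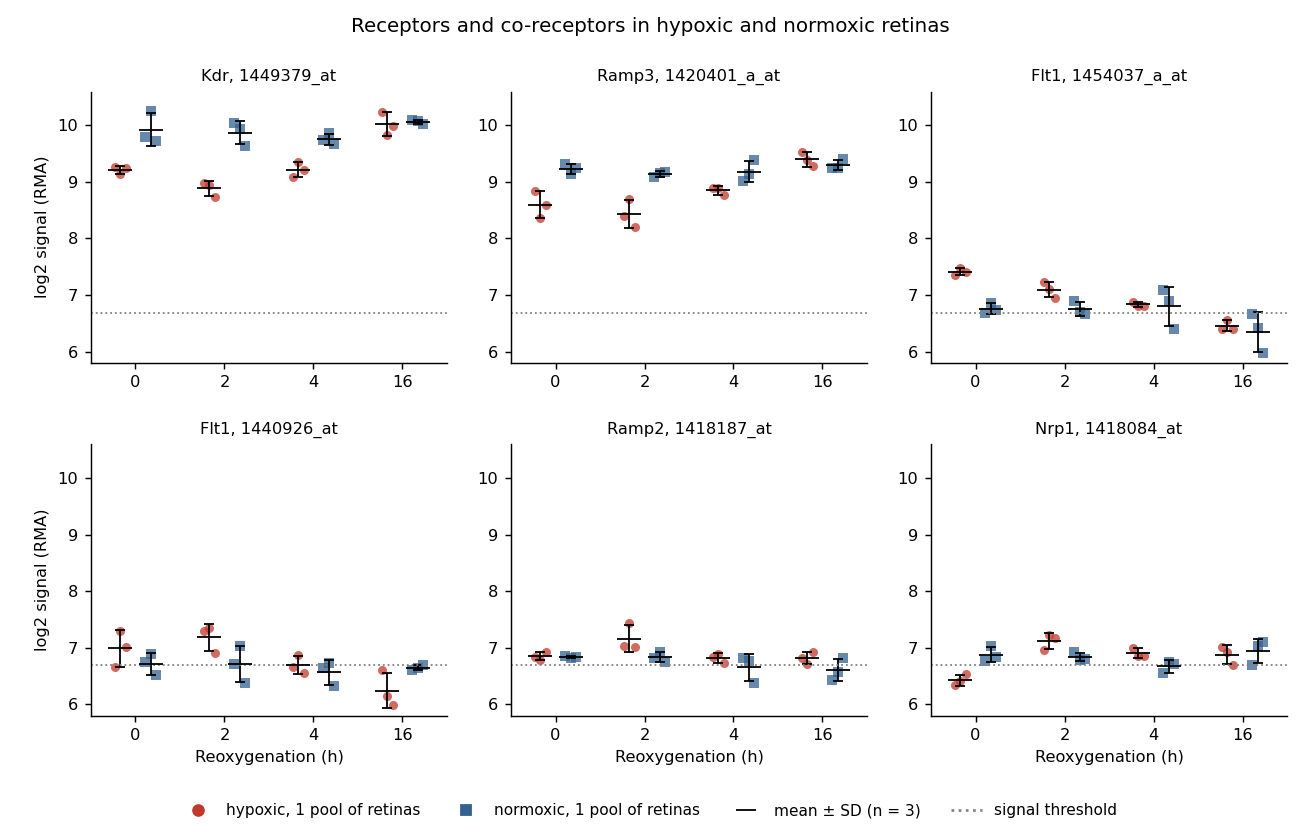
Log2 signal (RMA) of receptor and co-receptor genes by hours of reoxygenation, with hypoxic pools as red circles, normoxic pools as blue squares, bars for the mean ± SD (n = 3) and the signal threshold dotted. Hypoxic pools of Kdr lie below the normoxic pools at 0, 2 and 4 h and those of Ramp3 likewise, whereas hypoxic pools of Flt1 1454037_a_at lie above them at 0 and 2 h.

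Flt1, which encodes the second VEGF receptor and its ligand-trapping soluble form, was measured by 4 probe sets, of which 1 was called. Probe set 1454037_a_at had 7.35, 7.48 and 7.41 in hypoxic retinas at 0 h, against 6.68, 6.86 and 6.74 in normoxic retinas. The groups were clearly apart. Its means were 7.41 ± 0.06 in hypoxia and 6.76 ± 0.09 in normoxia, a change of 0.65 (SE 0.15, limma adjusted p = 0.00186) or 1.57-fold. The remaining probe sets were higher by 0.16 (1419300_at), 0.27 (1440926_at) and 0.26 (1451756_at), with overlapping groups and limma adjusted p of 0.295, 0.263 and 0.101. For 1419300_at the change was 0.30 and called (limma adjusted p = 0.0427) without normoxic replicate 2, the array that stood apart, and between 0.01 and 0.30 over all settings that left out 1 array. Probe set 1451756_at was called without hypoxic replicate 1, at 0.35 (limma adjusted p = 0.0497). With 1 array left out the change of 1451756_at ran from 0.16 to 0.35 and that of 1440926_at from 0.12 to 0.44, the second never called. The probe sets of this gene thus ran in 1 direction at 0 h and differed in size, and which transcript form each of them reads was not determined here. The mean over the 4 probe sets was higher by 0.34 (limma adjusted p = 0.0129, tested over gene means).

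At 2 h none of the 4 Flt1 probe sets was called, although all were higher in hypoxia. Probe set 1440926_at had 7.29, 7.35 and 6.91 in hypoxic retinas, against 6.72, 7.02 and 6.38 in normoxic retinas, a change of 0.48 (95% interval 0.10 to 0.85, limma adjusted p = 0.0751). Probe set 1454037_a_at had 7.22, 7.10 and 6.95 in hypoxic retinas, against 6.89, 6.70 and 6.66 in normoxic retinas, without overlap and with a change of 0.35 (limma adjusted p = 0.118). The other changes were 0.14 and 0.19. As a mean over its probe sets Flt1 was higher by 0.29 at 2 h and past the threshold (limma adjusted p = 0.0477). At 4 h the changes of the 4 probe sets were between 0.00 and 0.13, and at 16 h those of the 2 tested were 0.12 and -0.18, none of them called. Probe set 1440926_at passed the filter at 4 h only through its hypoxic group (normoxic mean 6.56) and so had to be higher.

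Of the adrenomedullin receptor subunits among the members, Ramp2 was measurable and Calcrl was not. Ramp2, the accessory protein that turns CALCRL into an adrenomedullin receptor, had 6.84, 6.78 and 6.93 in hypoxic retinas at 0 h, against 6.86, 6.82 and 6.84 in normoxic retinas. The groups overlapped, with a change of 0.01 (95% interval -0.24 to 0.26, limma adjusted p = 0.965). At 2 h it had 7.03, 7.44 and 7.01 in hypoxic retinas, against 6.81, 6.93 and 6.76 in normoxic retinas. All hypoxic pools were above the normoxic pools, by 0.33 (95% interval 0.08 to 0.58), and this did not pass the adjustment (limma adjusted p = 0.0646), although it did when the test ran over gene means (limma adjusted p = 0.0469). At 4 and 16 h the changes were 0.17 and 0.21, with overlap. Ramp2 was then tested only through its hypoxic group (normoxic means 6.65 and 6.61) and so had to be higher. Calcrl, the receptor protein itself, stayed below the threshold in every group, its 3 probe sets reaching at most 4.49, 5.53 and 3.69.

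Ramp3, the alternative accessory protein of this receptor, is no member but belongs to the list of adrenomedullin family genes, and it was lower at the same time points as Kdr. At 0 h it had 8.84, 8.35 and 8.60 in hypoxic retinas, against 9.32, 9.13 and 9.24 in normoxic retinas. At 2 h it had 8.40, 8.71 and 8.20 in hypoxic retinas, against 9.08, 9.15 and 9.18 in normoxic retinas. In both cases the groups did not overlap, and the changes were -0.63 (limma adjusted p = 0.000543) and -0.71 (limma adjusted p = 0.000773). At 4 h the hypoxic pools were still all below the normoxic pools, with a change of -0.33 (limma adjusted p = 0.194), and at 16 h the change was 0.10 (limma adjusted p = 0.945). As for Kdr, the change at 0 h differed from that at 16 h (difference -0.73, limma adjusted p = 0.00556).

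**Figure D3:**
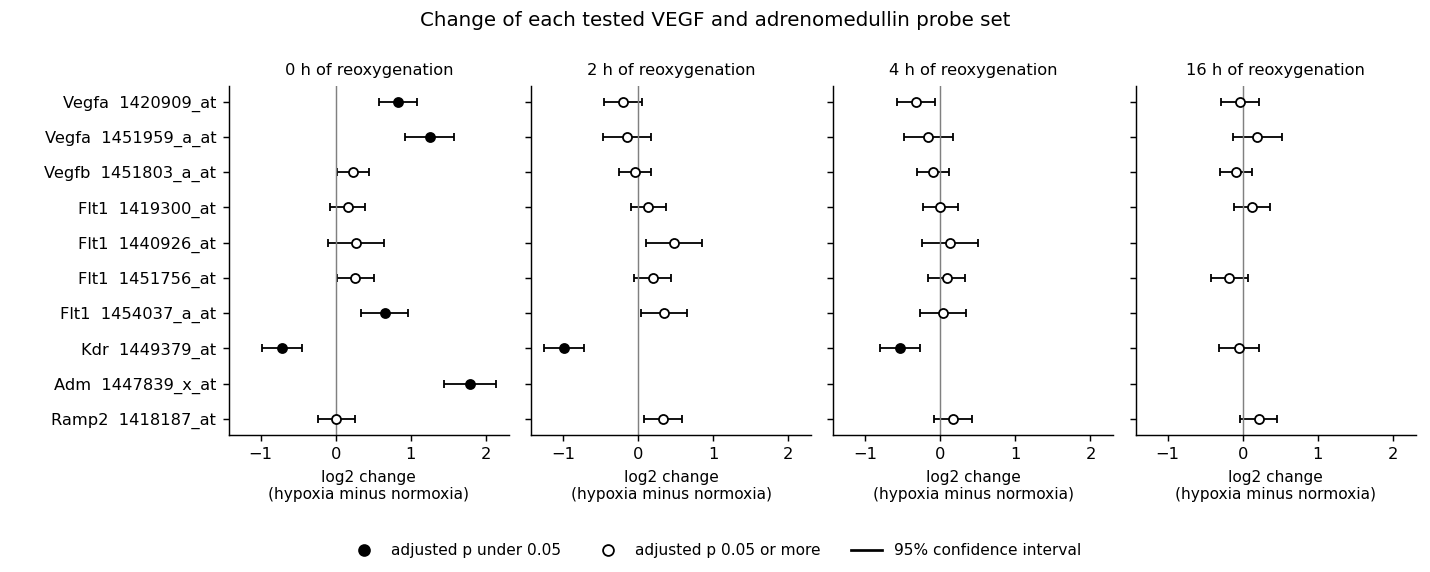
Log2 change (hypoxia minus normoxia) of each tested member probe set at 0, 2, 4 and 16 h of reoxygenation, with bars for 95% confidence intervals and filled points for an adjusted p under 0.05. At 0 h filled points of Vegfa, Flt1 and Adm lie above 0 and that of Kdr below, and at 2 and 4 h Kdr alone is filled, at -0.99 and -0.54; the Adm point is drawn at measured signals, with the normoxic level below the signal threshold.

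The study sampled 4 time points to follow the response over reoxygenation, and the differences between the changes at 2 time points, which share no array, were tested directly. The change at 0 h differed from that at 2 h for 3 of 10 member probe sets (8.21% of all tested), both of Vegfa and that of Adm. It differed from that at 4 h for 4 of 10 (16.9%) and from that at 16 h for 4 of 10 (20.6%). For Vegfa these differences were between 0.86 and 1.41, with limma adjusted p of 0.0018 or lower. Adm is counted in all 3, although 7 of its 8 group means were below the threshold, and no size is read from its differences. For Kdr the difference was past the threshold only between 0 and 16 h. Between 2 and 4 h and between 4 and 16 h 0 of 9 differed (0.487% and 0.122% of all tested). There the differences of Kdr were -0.45 (unadjusted p = 0.0221, limma adjusted p = 0.359) and -0.49 (unadjusted p = 0.0141, limma adjusted p = 0.465). Flt1 1454037_a_at was past the threshold between 0 and 4 h, by 0.62 (limma adjusted p = 0.0478), and this was lost in 21 of 24 settings that left out 1 array, with values between 0.47 and 0.81.

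At 16 h 0 of the 7 tested members were called in limma and 0 had an unadjusted p under 0.05, beside 6.37% of all tested at that unadjusted level. No tested member had separate groups, as 11.1% of all tested did. The 95% interval of the change ran from -0.32 to 0.22 for Kdr, from -0.29 to 0.22 for Vegfa 1420909_at and from -0.13 to 0.52 for Vegfa 1451959_a_at. The second Vegfa probe set thus leaves room for a larger difference, and its change lay between -0.07 and 0.42 when 1 array was left out.

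Among the normoxic groups, which differ in time of sampling, 1 of 9 member probe sets varied (3.54% of all tested). This was Vegfa 1451959_a_at, with means of 8.16, 8.05, 8.40 and 7.68 at 0, 2, 4 and 16 h (limma F test, adjusted p = 0.0435). Its low 16 h mean included the array that stood apart, and without that array the range of the means was 0.45 (adjusted p = 0.101). The call was lost in 18 of 24 settings that left out 1 array, with adjusted p up to 0.104. Vegfa 1420909_at (adjusted p = 0.253) and Kdr (adjusted p = 0.418) did not pass this test, with ranges of 0.35 and 0.31.

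Further genes of these pathways were taken from lists of textbook members. Of the VEGF co-receptors and the third VEGF receptor, Nrp1 and Nrp2 were tested. Nrp1, a co-receptor that binds VEGF-A together with KDR, had 6.33, 6.42 and 6.53 in hypoxic retinas at 0 h. Normoxic retinas had 6.76, 7.02 and 6.84, without overlap, a measured change of -0.45 (limma adjusted p = 0.00327). Its hypoxic mean of 6.43 was below the threshold, so it was tested only through its normoxic group and had to be lower. At 2 h its change was 0.29 (limma adjusted p = 0.0809) and differed from that at 0 h (difference -0.73, limma adjusted p = 0.00463). Nrp2 changed by -0.24 at 0 h (limma adjusted p = 0.0655), and it too was tested only through its normoxic group (hypoxic mean 6.66). No size is read from the 0 h changes of Nrp1 and Nrp2, nor from the difference of Nrp1 between 0 and 2 h.

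Of 21 tested genes that act downstream of the VEGF receptors, 5 rose and 1 fell at 0 h, with a median change of 0.15. These 6 calls are 28.6% of the list, beside 32.4% of all probe sets tested. They included the chaperone Hspb1 (1.47, SE 0.50, limma adjusted p = 0.0279) and the adaptor Shb (0.47, limma adjusted p = 0.0333). The normoxic mean of Hspb1 was 8.55 at 0 h and 9.86 at 2 h, beside 10.03 in hypoxia at 0 h. The endothelial nitric oxide synthase Nos3 (0.40, limma adjusted p = 0.00284) and the receptor Notch1 (-0.36, limma adjusted p = 0.0423) were called too. Shb passed the filter only through its hypoxic group (normoxic mean 6.31) and so had to be higher. At 2 h the sphingosine kinase Sphk1 fell by 0.49 (limma adjusted p = 0.00668), the only call of this list (5.26%, beside 16.6% of all tested). Sphk1 was then tested only through its normoxic group (hypoxic mean 6.35) and so had to be lower. At 4 h the endothelial phosphatase Ptprb fell by 0.53 (limma adjusted p = 0.0399), again the only call (5.26%, beside 1.43%). At 16 h 0 of 19 were called. Besides Ramp3, 2 of the 12 adrenomedullin family genes were tested, Crcp, which rose by 0.28 at 0 h (limma adjusted p = 0.00654), and Gnas. Calls in this list were 2 of 3 tested at 0 h (66.7%, beside 32.4% of all tested) and 1 of 3 at 2 h (33.3%, beside 16.6%). Among other vascular factors 3 of 7 tested were called at 0 h (42.9%, beside 32.4% of all tested). The vasoconstrictor Edn1 rose by 0.95 (limma adjusted p = 1.12e-06) and the apelin precursor Apln by 0.73 (0.00123), while the endothelin receptor Ednrb fell by 0.50 (0.00281). Edn1 passed the filter only through its hypoxic group (normoxic mean 6.16) and Ednrb only through its normoxic group (hypoxic mean 6.54). The directions of Edn1 and Ednrb were thus fixed, and no size is read from them. Apln was also higher at 2 h, by 0.97 (limma adjusted p = 0.000414), when the chemokine Cxcl12 fell by 0.33 (0.0189). These were 2 of 6 tested at 2 h (33.3%, beside 16.6% of all tested).

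The HIF-1 targets outside the members, 23 tested, gave 20 higher and 0 lower at 0 h (15.2% and 17.2% of all tested), with a median of 0.82. Egln3, among the 20, passed the filter only through its hypoxic group (normoxic mean 5.63). The lactate exporter Slc16a3 (1.91), the oxygen sensor Egln1 (1.70), the adenylate kinase Ak4 (1.40) and the oxidoreductase Ero1a (1.32) had the largest changes. At 2 h 4 of 22 were higher and 6 lower (9.19% and 7.38% of all tested). At 4 h 0 were higher and 2 lower (0.876% and 0.551%). These 2 were Ak4 (-1.23, limma adjusted p = 0.00229) and the glycolytic regulator Pfkfb3 (-0.61, limma adjusted p = 0.00447). The rises of Vegfa at 0 h, of 0.83 and 1.25, lay within the range of this list.

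**Figure D4:**
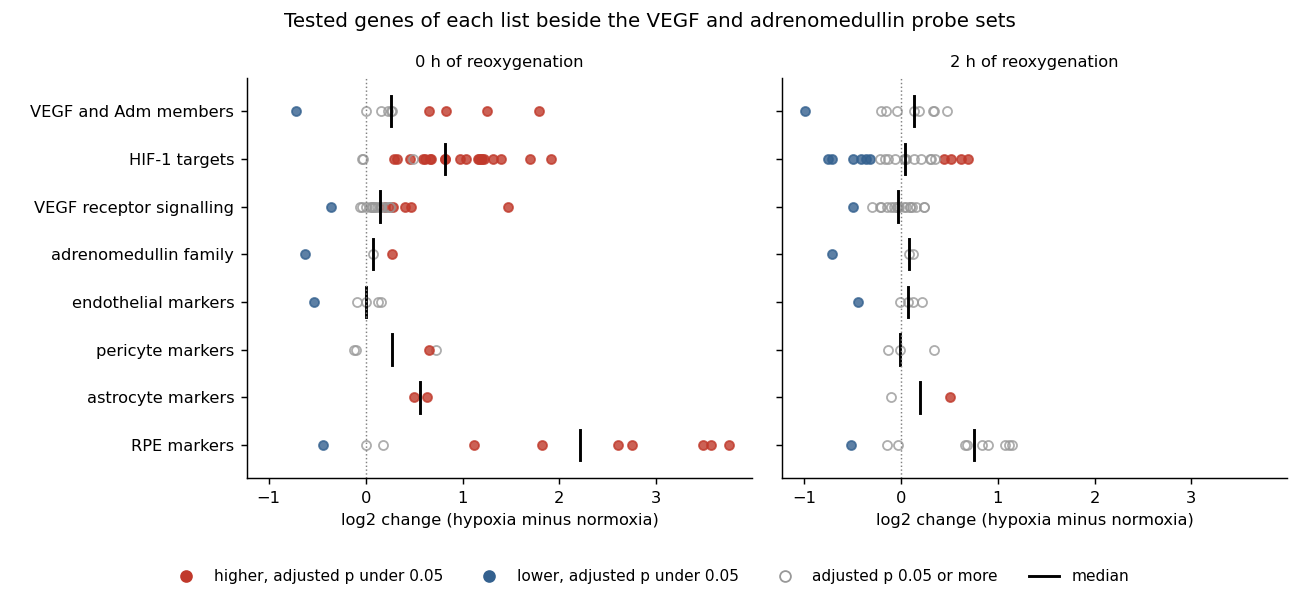
Log2 change (hypoxia minus normoxia) of each tested gene by list at 0 h and 2 h, 1 point per gene (per probe set for the members), red where higher and blue where lower with adjusted p under 0.05, and a black line at the median. At 0 h the HIF-1 targets have a median of 0.82 and the members 0.27, the endothelial markers are around 0 apart from Slco1a4 at -0.53, and the RPE markers reach 3.75.

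Kdr, Flt1 and Calcrl act in vessels, so endothelial markers were read beside them. Which cells of the retina gave their signal was not tested. In bulk retina fewer cells of a type and less RNA per cell cannot be told apart. Of 11 endothelial markers 5 were tested, Cldn5, Egfl7, Eng, Esam and Slco1a4, while Pecam1, Cdh5, Vwf, Emcn, Erg and Robo4 stayed below the threshold. Their median change was 0.01 at 0 h and 0.08 at 2 h, against -0.71 and -0.99 for Kdr. The summed linear signal of the 11 was 1329 to 1518 in hypoxic and 1343 to 1453 in normoxic retinas at 0 h, and 1295 to 1477 in hypoxic and 1274 to 1344 in normoxic retinas at 2 h, with overlap at both times. Slco1a4, an organic anion transporter of the blood-retina barrier, was the only endothelial marker called, at 0 h (-0.53, limma adjusted p = 0.00101) and at 2 h (-0.44, limma adjusted p = 0.0107). This was 20% of the tested markers, beside 32.4% and 16.6% of all tested. Of the untested markers, Pecam1 (0.80), Robo4 (0.48), Vwf (0.33) and Cdh5 (0.21) had all hypoxic pools above the normoxic ones at 0 h. Emcn (-0.04) and Erg (0.00) overlapped. At 2 h Pecam1 (0.83) and Vwf (0.175) were again all above, and the other untested markers overlapped.

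Markers of the retinal pigment epithelium (RPE), the layer behind the retina, moved with the rises of Vegfa, Adm and Flt1 at 0 h. Of 10 tested 7 were higher and 1, Mitf, lower (15.2% and 17.2% of all tested). The measured changes were 3.75 for Ttr, 3.57 for Rgr, 3.48 for Rpe65 and 2.75 for Dct. Group means were at or above the threshold for 10 of the 12 markers in hypoxia and 4 in normoxia. Rgr, Rpe65, Dct, Rdh5, Tyrp1 and Pmel passed the filter only through their hypoxic group and so had to be higher. No size is read from the changes of these genes. The summed linear signal of all 12 RPE markers was 14055 to 14741 in hypoxic and 6690 to 7482 in normoxic retinas at 0 h. Rlbp1 (11.69) and Otx2 (11.34) had the highest normoxic means of this list and weigh most in the normoxic sum. They changed by 0.00 and 0.18, so the sums do not give the size of the change in the other markers. At 2 h the sums overlapped, with 7805 to 11064 in hypoxic and 6566 to 8924 in normoxic retinas. Of 2 tested astrocyte markers 2 were higher at 0 h (15.2% of all tested), Pdgfra by 0.63 and Aldh1l1 by 0.50. The summed signal of this list was 700 to 802 in hypoxic and 515 to 584 in normoxic retinas, and Gfap was below the threshold. Of 4 tested pericyte and smooth muscle markers 1 was higher at 0 h (Tagln, 0.65), and of 8 Müller glia markers 1 (Vim, 0.56), beside the same 15.2%. The hypoxic mean of Vim at 0 h (11.75) was below its normoxic means at 2, 4 and 16 h (12.11, 11.96 and 11.80). The lens markers had a median change of 1.39 with 0 of 8 called at 0 h, and the normoxic sums ran from 4301 to 66219, the lowest in the array that stood apart.

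Markers that were lower in hypoxic retinas were read beside the lower signal of Kdr. Of the 13 marker lists, 1 had all hypoxic sums below the normoxic ones at 0 h, 2 at 2 h and 4 at 4 h. Among single probe sets tested, 23.9%, 14.9% and 10.2% had all hypoxic arrays below at these times. All hypoxic sums were above for 2 lists at 0 h, RPE and astrocytes, and for 0 at 2 and 4 h. The rod sums were 75454 to 76975 in hypoxic and 77747 to 79152 in normoxic retinas at 0 h, and 69465 to 72749 in hypoxic and 73388 to 77161 in normoxic retinas at 2 h. The bipolar cell sums were 8490 to 9320 in hypoxic and 9897 to 10586 in normoxic retinas at 2 h, and 9372 to 10036 in hypoxic and 10583 to 11390 in normoxic retinas at 4 h. Kdr was lower at 0, 2 and 4 h, the rod sums at the first 2 of these times and the bipolar cell sums at the last 2. The sizes differed, with Kdr at -0.71 and -0.99 at 0 and 2 h and a median rod marker change of -0.05 and -0.12. Of 6 rod markers 0 were called at 0 h. At 4 h the cone sums were 12668 to 12784 in hypoxic and 14121 to 15117 in normoxic retinas. The amacrine and horizontal cell sums were 6577 to 6736 in hypoxic and 7416 to 7716 in normoxic retinas at that time. Those of pericyte and smooth muscle markers were 1650 to 1773 in hypoxic and 1953 to 1986 in normoxic retinas. In that list Rgs5 (-0.29), Acta2 (-0.24), Abcc9 (-0.07) and Des (-0.02) were lower at 4 h. Kcnj8 (0.42), Myh11 (0.27), Cspg4 (0.20), Anpep (0.13) and Tagln (0.06) were higher. Opn1mw of the cone list (0.23) and Trpm1 of the bipolar list (0.38) were higher too at 4 h. All other markers of both lists were lower. A linear sum is set mostly by its strongest genes. Single markers called lower were Cabp5 of bipolar cells at 0 h (-0.58, limma adjusted p = 4.86e-05) and 2 h (-0.55, limma adjusted p = 0.00044), Pde6a of rods at 2 h (-0.43, limma adjusted p = 0.00733) and Pde6h of cones at 0, 2 and 4 h (-0.31, -0.29 and -0.44). Gnat2 of cones was lower at 4 h as well (-0.33, limma adjusted p = 0.0186). Lower calls among these cell types at 0 h were 1 of 3 tested bipolar and 1 of 5 cone markers (17.2% of all tested). At 2 h they were 1 of 4 bipolar, 1 of 6 rod and 1 of 5 cone markers (7.38%). At 4 h they were 2 of 5 cone markers (0.551%). Uncalled markers went both ways at 0 h, with Prkca at 0.25 and Gnat2 at 0.14, and Pcp2 at -0.10 and Arr3 at -0.30. Pou4f1 of ganglion cells, 1 of 6 tested, was called higher at 0 h (0.41, limma adjusted p = 0.00331). The part of these cell types in the changes of the members was not tested.

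The genes whose signal ran most like that of the ligands over the 24 arrays were sought among 17532 probe sets. For Adm 1447839_x_at they were Depp1 (Pearson r = 0.91), Tiparp (0.90), Apold1 (0.90), Ppp1r3c (0.89) and Slc19a2 (0.89). For Vegfa 1420909_at they were Jmjd6 (0.95), 2310022B05Rik (0.91), Kdm3a (0.91), Ero1a (0.90) and Errfi1 (0.89). The 2 Vegfa probe sets had r = 0.74 with each other over all arrays and -0.30 after the group means were removed, and Vegfa 1420909_at and Adm 1447839_x_at had 0.77 and -0.17. These correlations are descriptions over arrays that share their 8 groups and 1 normalization.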

How the data were processed

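The authors deposited 1 table of log2 signals for 24 arrays, made with RMA per the labels (background correction, normalization between arrays and 1 summary per probe set, version not given in the sources used here). GCRMA values, from which the study drew its own lists, were not used here. The 64 control probe sets were left out. Symbols came from the array annotation, which gave 34945 of 45037 probe sets 1 gene, and 2 further probe sets that list Ramp2 with another gene were left out.

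The 8 group means were fitted in 1 linear model with limma 3.58.1 in R 4.3.3 (16 residual degrees of freedom, eBayes), with Benjamini-Hochberg adjustment over all probe sets tested. A difference between 2 time points and the F test among normoxic groups were contrasts in this model. It was tested on simulated data. A listed gene stands for its probe set with the highest mean, and up to 4 called genes with the largest change are named per list and time point. Of Adm and Vegfa, the 5 genes of highest Pearson r are named. The members and lists were chosen with earlier results of these data known. Arrays have no read depth, and their number limits the precision.

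The alternatives were no signal filter, a threshold higher by 1, median centring, quantile normalization, array weights, a trended and robust spread, a replicate block over all or within time points, the arrays of a comparison alone, the methods' t-test, an adjusted p under 0.1, gene means, leaving out each array in turn, and leaving out together replicate 2 of normoxia at 0 h and replicate 3 of normoxia at 16 h.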

Additional observations from a re-analysis of the deposited data

Results flagged for a closer look

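The results here are changes (hypoxia minus normoxia, log2) that differed between time points by a test of the difference itself (limma, adjusted over all probe sets tested). For Vegfa 1420909_at the change at 0 h minus the change at 2 h was 1.03 (adjusted p = 0.000625). Against 4 h the difference was 1.15 (adjusted p = 9.06e-05), and against 16 h 0.86 (adjusted p = 0.00121). For Vegfa 1451959_a_at the 3 differences were 1.40 (adjusted p = 0.000366), 1.41 (adjusted p = 0.000147) and 1.05 (adjusted p = 0.0018).

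For Adm 1447839_x_at the measured change at 0 h minus those at 2, 4 and 16 h was 1.79 (adjusted p = 6.32e-05), 1.78 (adjusted p = 2.47e-05) and 1.73 (adjusted p = 2.85e-05), but all signals other than those of hypoxia at 0 h were below the threshold and it was tested only through that group, so that no size is read from these differences. For Kdr 1449379_at the change at 0 h minus that at 16 h was -0.67 (adjusted p = 0.0125), and -0.48 (adjusted p = 0.0673) without the 2 arrays that stood apart. For Flt1 1454037_a_at the change at 0 h was larger than the 4 h change by 0.62 (adjusted p = 0.0478). This call was lost in 21 of 24 settings that left out 1 array. In each of the flagged probe sets the hypoxic and normoxic pools at 0 h did not overlap, as in 45.4% of all tested. Since they were flagged for their 0 h change, this adds no further evidence.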

How the results depend on the processing

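The count of called members at 0 h was 5 and ran from 5 to 6 when 1 array was left out, and it was 3 with a threshold higher by 1, at which fewer probe sets were tested. At 2 h the count of 1 ran from 1 to 2 without 1 array (2 without hypoxic 2 h replicate 3 or normoxic 2 h replicate 2, 4 h replicate 3 or 16 h replicate 3). It was 0 by the methods' t-test, 3 with an adjusted p under 0.1 and 3 over gene means. At 4 h the count of 1 ran from 0 to 1, and was 0 with no filter, with the arrays of the time point alone and by the methods' t-test. At 16 h it was 0 in every setting. Of the differences between time points, the 4 from 0 to 4 h became 2 with the higher threshold and 2 over gene means, and the 4 from 0 to 16 h became 7 with an adjusted p under 0.1. The 1 call among the normoxic groups ran from 0 to 1 without 1 array and was 0 with no filter, quantile normalization, array weights, the normoxic arrays alone, or without both arrays that stood apart.

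Equal replicate numbers did not mark pairs: deviations from the group means of same-numbered arrays at a time point correlated between -0.23 and 0.24, with 2 of 12 over 0.1, and 8 of 24 arrays correlated best with their own number. With a replicate block over all time points the count at 2 h was 2, and with a replicate block within a time point it was 3 at 2 h and 0 at 4 h.

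Signs turned only for changes that were not called. They were -0.022 (quantile) and -0.0012 (median centring) for Flt1 1419300_at and -0.0054 (array weights) for Flt1 1454037_a_at at 4 h. At 16 h they were 0.0075 and -0.0215 (array weights), and 0.0844 and -0.0721 (without both arrays), for Vegfa 1420909_at and 1451959_a_at, and for Ramp2 at 0 h -6e-04 (without both arrays). Without 1 array the ranges were -0.029 to 0.0418 (Ramp2, 0 h), -0.0901 to 0.0241 (Vegfb, 2 h), -0.0323 to 0.0435 and -0.161 to 0.18 (these Flt1 probe sets, 4 h), -0.135 to 0.0844 and -0.0721 to 0.419 (these Vegfa probe sets, 16 h) and -0.158 to 0.0507 (Kdr, 16 h).

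Of the other single values, 585 kept direction and side of the threshold, 13 lost and 8 gained a call in settings other than leaving out 1 array, and 1399, 44 and 10 did so when 1 array was left out. Over all probe sets the counts depended more on the setting: 6091 called at 0 h (2803 by the methods' t-test), 3081 at 2 h (156 by the methods' t-test), 264 at 4 h (3 by the methods' t-test, 727 with array weights), 1568 from 0 to 2 h (881 with these arrays alone, 2376 at adjusted p under 0.1), 92 from 2 to 4 h (15 without hypoxic 2 h replicate 1, 228 with array weights), 23 from 4 to 16 h (6 with the block within a time point, 62 with the trended spread) and 664 among the normoxic groups (85 without both arrays, 1532 at adjusted p under 0.1). Low signal limits Adm after 0 h, Vegfc and Calcrl, which were not tested, and with 3 pools a group small changes may have been missed.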
